A study of Mus musculus with 8 samples.

Results

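Forkhead transcription factors were described in hearts of mouse embryos of embryonic day 9.5, a stage at which a looped tube already beats. The members were the genes whose symbol is Fox, a letter from a to s and a number, which gave 44 of the 49315 genes of the count table. RNA sequencing had been carried out on 8 libraries of C57BL/6 embryonic heart, 4 labelled Female and 4 labelled Male, and the labels name 1 strain, 1 age and no treatment. Per the labels' protocols, Sry was genotyped in other tissue of each embryo to give its sex. Whether hearts were pooled, and which embryos were littermates, is not stated in the labels, so the p-values below measure only the spread between these libraries. All 8 libraries were treated as 1 set for level, spread and covariation, and sex was then tested over all genes.

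Forkhead factors share a winged-helix DNA-binding domain and are grouped into lettered subfamilies by the similarity of that domain. Some act as pioneer factors that open chromatin for others (the Foxa group), some carry growth factor signals into the nucleus (the Foxo group downstream of insulin, Pi3k and Akt, and Foxh1 with the Smad proteins downstream of Nodal), and some repress transcription through zinc finger and leucine zipper domains (the Foxp group). In the embryonic heart, Foxp1 is known from its role in myocardial growth and the outflow tract, Foxm1 from cardiomyocyte division, Foxc1, Foxc2 and Foxh1 from second heart field and outflow tract development, and Foxo1 from the early vessels.

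Library totals ran from 20105913 to 51134291 counts. Levels are given as counts per 1000000 counts of the library (CPM), scaled by the trimmed mean of M-values (TMM), which corrects a library's size for its composition. Its factor for Male replicate 2 was 0.864, that for Female replicate 4 was 1.07, and the other 6 had 0.982 to 1.05. Xist, the RNA of the inactive X chromosome, was at 225 to 277 CPM in the females and at 0.340 to 0.612 CPM in the males, and the Y-linked gene Ddx3y was at 32.9 CPM or more in every male and at 0.187 CPM or less in every female. The 10 cardiomyocyte markers summed to 36123 to 59763 CPM and the 12 endocardial and endothelial markers to 958 to 1128 CPM. The 10 erythroid markers summed to 4732 to 12511 CPM. Markers of neighbouring tissues were lower, with 327 to 701 CPM for 15 foregut and pharyngeal epithelial genes, 58.1 to 115 CPM for 10 splanchnic and second heart field genes and 39.4 to 125 CPM for 10 hepatic genes. Most of the foregut sum came from the keratins Krt8, Krt18 and Krt19, with means of 205, 121 and 108 CPM. Every other gene of that list had a mean of 9.14 CPM (Hhex) or less. Of the hepatic sum, Prox1, which endothelium also expresses, gave 29.9 to 39.5 CPM in every library. The neural crest list stood at 113 to 152 CPM and the epicardial and proepicardial list at 68.8 to 134 CPM. The neural tube list stood at 9.35 to 22.8 CPM and the somite list at 1.77 to 4.72 CPM, with 1 of its 8 genes at 0 counts. In these bulk libraries, fewer cells of a type and less RNA per cell cannot be told apart.

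A small group of members held nearly all of the family's RNA. Of the 44 genes, 16 had a mean of at least 10 CPM, 5 had 1 to 10 CPM and 23 stayed below 1 CPM. The first 16 made up 98.1% of the summed forkhead CPM, the 10 highest 85.2%, and Foxp1 and Foxp4 alone 37.2%. The summed level was 666 to 732 CPM in 7 libraries and 934 CPM in Male replicate 2.

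By subfamily, the 4 Foxp genes summed to 284 ± 101 CPM (SD, n = 8), the 4 Foxo genes to 134 ± 11.03 CPM and the 2 Foxk genes to 100.2 ± 17.2 CPM. Together these 3 subfamilies were the most abundant part of the family. The Foxa group, which marks endoderm, summed to 2.29 ± 2.64 CPM and the Foxf group, which marks splanchnic mesoderm, to 2.86 ± 3.08 CPM. In both of these low groups the SD over libraries was larger than the mean.

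**Figure D1:**
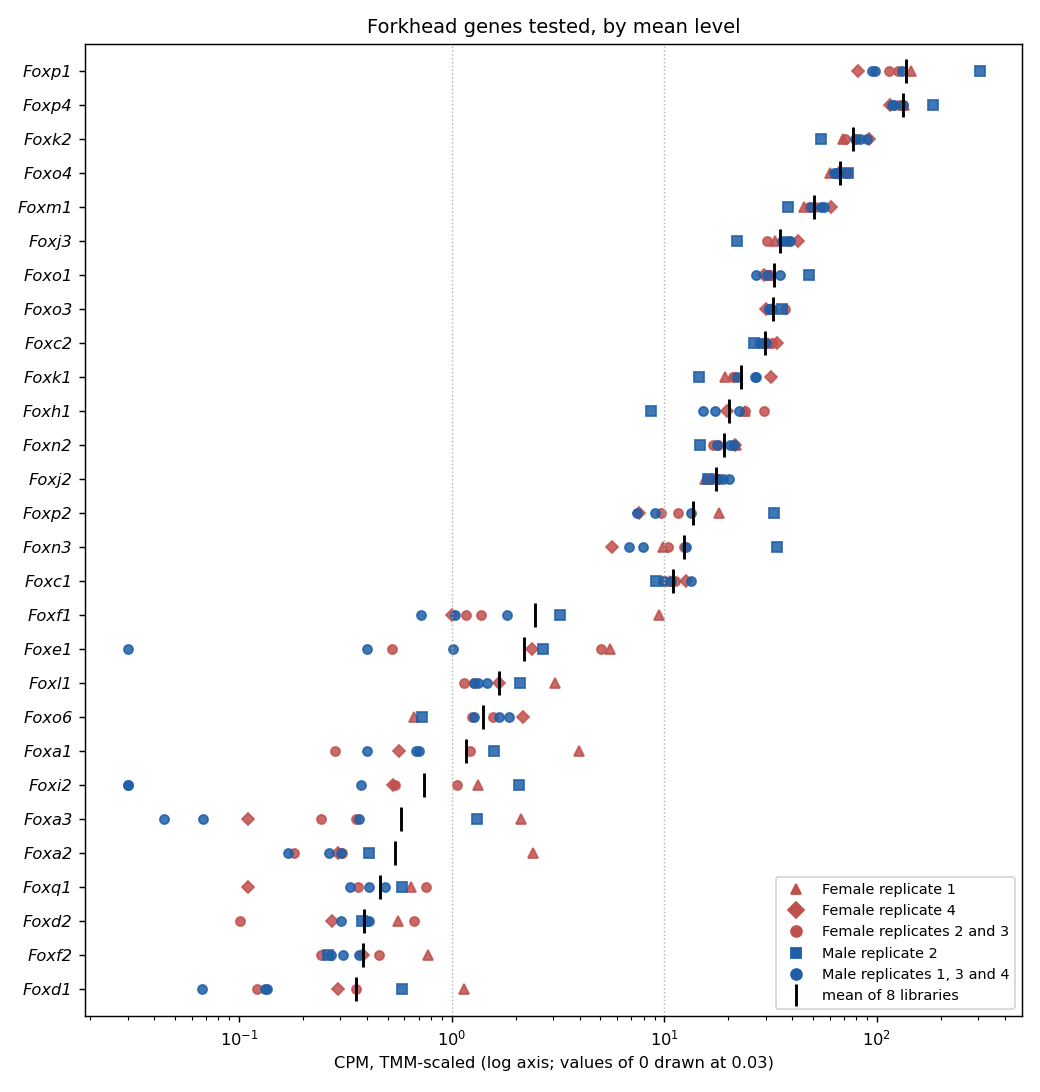
CPM of the 28 forkhead genes that passed the filter on low counts, 1 row per gene in order of mean level, on a log axis, with 1 point per library (red, Female; blue, Male; separate symbols for Female replicates 1 and 4 and Male replicate 2) and a bar at the mean of 8 libraries. The 16 genes above 10 CPM hold narrow ranges except Foxp1, Foxp2, Foxn3 and Foxh1, and Female replicate 1 is the rightmost point for 8 of the 12 lower genes.

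Foxp1 and Foxp4 were the 2 most abundant forkhead RNAs, Foxp2 was lower and Foxp3 stayed below 1 CPM. Foxp1 (chr6:98925338-99522721, minus strand, GRCm38) was at 144, 114, 126 and 81.5 CPM in Female replicates 1 to 4 and 98.2, 305, 94.7 and 132 CPM in Male replicates 1 to 4 (mean and SD over 8, 137 ± 71.0 CPM). Male replicate 2 was above every other library by more than their whole range, and Female replicate 4 was lowest. Foxp4 (chr17:47867133-47924645, minus strand), which can pair with Foxp1 through the leucine zipper, was at 134, 127, 133 and 115 CPM in the females and 121, 184, 117 and 132 CPM in the males, in replicate order (mean and SD over 8, 133 ± 22.0 CPM). Its highest and lowest libraries were the same as those of Foxp1, but over a smaller range. Per kilobase of counted exon length, Foxp4 was the highest member of the family at 27.0 CPM, with Foxp1 at rank 6 with 9.95 CPM because its counted length of 13751 bases is long.

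Foxp2, best known from vocal learning and lung development, was at 18.1, 9.61, 11.6 and 7.64 CPM in the females and 9.08, 32.6, 7.42 and 13.3 CPM in the males, in replicate order (mean and SD over 8, 13.7 ± 8.42 CPM). As for Foxp1, Male replicate 2 was highest and Female replicate 1 next, but Male replicate 3 was lowest, just below Female replicate 4. Foxp3, the regulatory T cell factor, reached only 0.298 CPM on average with 83 counts in all, and 14.8% of its counted length overlaps exons of Ccdc22 on the opposite strand. The sources used here do not give the strand setting of the counting, so reads of overlapping genes may be shared between them.

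Coefficients of variation (CV, the SD over the mean) of the Foxp genes were 51.9% for Foxp1, 61.6% for Foxp2 and 16.5% for Foxp4. Of the 7887 genes tested in the same range of level, 99.5% had a lower CV than Foxp1 and 73.6% a lower CV than Foxp4. Counting error alone gives 1.46% for Foxp1. Without Male replicate 2 the CV of Foxp1 was 19.9% and that of Foxp2 34.4%.

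The Foxk genes, repressors that act on metabolic and autophagy genes and of which Foxk1 was first described in myogenic cells, ran the opposite way. Foxk2 (chr11:121259990-121309896, plus strand) was at 69.1, 79.4, 71.2 and 91.9 CPM in Female replicates 1 to 4 and 83.3, 54.8, 89.8 and 78.8 CPM in Male replicates 1 to 4 (mean and SD over 8, 77.3 ± 12.1 CPM). Here Male replicate 2 was the lowest library and Female replicate 4 the highest. Foxk1 was at 19.2, 21.3, 21.1 and 31.7 CPM in the females and 27.1, 14.5, 26.6 and 21.9 CPM in the males, in replicate order (mean and SD over 8, 22.9 ± 5.33 CPM), with the same library at each end. Per kilobase, Foxk2 stood at 14.7 CPM and Foxk1 at 3.02 CPM.

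Foxo factors are kept out of the nucleus when Akt phosphorylates them, and Foxo4 and Foxo3 had the smallest CVs of the tested members. Foxo4, on the X chromosome (chrX:101254528-101260873, plus strand), was at 60.2, 72.1, 72.5 and 66.3 CPM in Female replicates 1 to 4 and 64.0, 73.0, 65.4 and 62.9 CPM in Male replicates 1 to 4 (mean and SD over 8, 67.0 ± 4.89 CPM). The sexes overlapped over nearly their whole ranges. Foxo3 was at 31.8, 37.0, 31.9 and 29.99 CPM in the females and 31.2, 35.7, 32.2 and 31.1 CPM in the males, in replicate order (mean and SD over 8, 32.6 ± 2.43 CPM), a similarly narrow spread. Their CVs were 7.30% and 7.46%, below the median of 11.7% for the 7887 genes of that range. Foxo1, needed for embryonic vessel growth, was at 31.5, 30.6, 31.4 and 29.3 CPM in the females and 30.3, 47.8, 27.1 and 35.0 CPM in the males, in replicate order (mean and SD over 8, 32.9 ± 6.43 CPM). Male replicate 2 stood above the other 7 libraries, and its removal took the CV of Foxo1 from 19.5% to 7.75%. Foxo6, best known from the brain, was low at 1.40 ± 0.526 CPM (SD, n = 8).

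Foxm1, which switches on genes of mitosis in dividing cells, was at 45.4, 50.9, 47.8 and 61.03 CPM in Female replicates 1 to 4 and 56.5, 38.1, 54.3 and 49.1 CPM in Male replicates 1 to 4 (mean and SD over 8, 50.4 ± 7.09 CPM). As for the Foxk genes, Female replicate 4 was highest and Male replicate 2 lowest. Foxj3, known from the control of Mef2c in muscle, was at 33.2, 38.5, 30.4 and 42.5 CPM in the females and 39.1, 21.9, 37.2 and 35.9 CPM in the males, in replicate order (mean and SD over 8, 34.8 ± 6.40 CPM). Foxj2 was steadier at 17.6 ± 1.498 CPM (SD, n = 8), a CV of 8.51%. Foxj1, the regulator of motile cilia, had 63 counts over the 8 libraries and did not pass the filter.

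The broadly expressed pair Foxn2 and Foxn3 moved in opposite directions over the libraries. Foxn3, a repressor linked to the DNA damage checkpoint, was at 9.83, 10.36, 12.4 and 5.71 CPM in Female replicates 1 to 4 and 7.96, 33.7, 6.81 and 12.6 CPM in Male replicates 1 to 4 (mean and SD over 8, 12.4 ± 8.95 CPM). Male replicate 2 was 2.67 times the next library. Foxn2 was at 21.7, 17.9, 16.9 and 21.5 CPM in the females and 20.3, 14.7, 21.3 and 17.7 CPM in the males, in replicate order (mean and SD over 8, 19.0 ± 2.57 CPM), with Male replicate 2 lowest. The CV of Foxn3 was 72.1%, the largest among members above 10 CPM, and 99.8% of genes in that range had a lower one. Without Male replicate 2 it was 28.5%. Foxn1, the thymic epithelial factor, and Foxn4 had 4 and 2 counts in all.

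Foxc1 and Foxc2, paralogues that act in second heart field, endothelium and outflow tract, were both present and steady. Foxc2 (chr8:121116171-121118895, plus strand) was at 30.7, 32.1, 27.9 and 33.9 CPM in Female replicates 1 to 4 and 28.6, 26.4, 30.004 and 29.3 CPM in Male replicates 1 to 4 (mean and SD over 8, 29.9 ± 2.39 CPM). No library stood apart. Foxc1 (chr13:31806691-31810643, plus strand) had a mean of 10.97 ± 1.41 CPM (SD, n = 8) and a range of 9.15 to 13.3 CPM. Per kilobase, Foxc2 at 10.96 CPM was above Foxc1 at 2.78 CPM.

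Foxh1 (chr15:76668284-76669948, minus strand), the Smad partner in Nodal signalling, was at 23.9, 29.4, 23.9 and 19.8 CPM in Female replicates 1 to 4 and 22.5, 8.65, 15.3 and 17.3 CPM in Male replicates 1 to 4 (mean and SD over 8, 20.1 ± 6.36 CPM). Male replicate 2 was again the lowest library, and the sexes overlapped, since Male replicate 1 lay above Female replicate 4. Its short counted length of 1306 bases gave it rank 3 in the family per kilobase, with 15.4 CPM.

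Foxf1, Foxc2 and Foxl1 lie side by side on chromosome 8, with 28.0 kb between the first pair and 9.04 kb between the second. Foxf1 (chr8:121084386-121088144, plus strand), a hedgehog-responsive factor of splanchnic mesoderm, was at 9.45, 1.17, 1.37 and 1.01 CPM in Female replicates 1 to 4 and 0.714, 3.23, 1.81 and 1.03 CPM in Male replicates 1 to 4 (mean and SD over 8, 2.47 ± 2.93 CPM). Female replicate 1 was 2.92 times the next library, Male replicate 2. Foxl1, a factor of gut mesenchyme, was at 3.07, 1.15, 1.27 and 1.66 CPM in the females and 1.33, 2.10, 1.46 and 1.27 CPM in the males, in replicate order (mean and SD over 8, 1.66 ± 0.644 CPM). The same 2 libraries were its highest, while Foxc2 between them had neither at its top. Without Female replicate 1 the mean of Foxf1 went from 2.47 to 1.48 CPM and its CV from 118% to 57.4%.

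The Foxa genes, pioneer factors of the definitive endoderm and its liver and lung derivatives, had counts in every library, at low levels. Foxa1 (chr12:57540631-57546121, minus strand) was at 3.95, 0.282, 1.22 and 0.567 CPM in Female replicates 1 to 4 and 0.680, 1.57, 0.398 and 0.7005 CPM in Male replicates 1 to 4 (mean and SD over 8, 1.17 ± 1.20 CPM). Foxa2 (chr2:148042877-148046969, minus strand) was at 2.40, 0.181, 0.304 and 0.293 CPM in the females and 0.170, 0.408, 0.265 and 0.300 CPM in the males, in replicate order (mean and SD over 8, 0.541 ± 0.756 CPM). Foxa3 (chr7:19013284-19023538, minus strand) was at 2.11, 0.242, 0.355 and 0.110 CPM in the females and 0.0680, 1.31, 0.0442 and 0.367 CPM in the males, in replicate order (mean and SD over 8, 0.576 ± 0.742 CPM). Female replicate 1 was the highest library for all 3, and Male replicate 2 the next. Foxa2 rested on Female replicate 1 alone: its mean went from 0.541 to 0.274 CPM and its CV from 139.9% to 29.5% without it.

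Foxe1 (chr4:46343609-46346412, plus strand), a factor of the thyroid bud and pharyngeal endoderm, was at 5.53, 0.524, 5.02 and 2.40 CPM in Female replicates 1 to 4 and 0, 2.68, 1.02 and 0.400 CPM in Male replicates 1 to 4 (mean and SD over 8, 2.20 ± 2.12 CPM). Female replicates 1 and 3 were highest, and Male replicate 1 had 0 counts, which allows up to 0.102 CPM when 3 counts are taken as the limit (counting error only). Unlike Foxa2, Foxe1 varied among the other libraries too: its CV was 96.7% over all 8 and 103% without Female replicate 1. Foxi2, at 0.740 CPM on average, had 0 counts in Male replicates 3 and 4, which allows up to 0.133 and 0.100 CPM.

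Beside Foxi2, Foxa3 and Foxa2, the members below 1 CPM that passed the filter were Foxq1, Foxd2, Foxf2 and Foxd1, with means of 0.354 to 0.460 CPM. Foxd1, a factor of the kidney stroma, reached 1.15 CPM in Female replicate 1 and 0.583 CPM in Male replicate 2, and 0.0667 to 0.355 CPM elsewhere. For Foxq1, 38.1% of its counted length overlaps A530084C06Rik on the opposite strand, so its level is uncertain. The other 16 members did not pass: among them, Foxp3, Foxj1 and Foxl2 of the ovary had 60 to 83 counts in all, and 12 had under 20. Foxb1 and Foxb2, factors of the neural tube, had 0 counts in every library, which allows up to 0.0108 CPM over the 8 libraries together.

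Promoters of 28 of the 44 members were matched by symbol in a RefSeq table of GRCm38.p6, each 300 bases long with 250 before the transcript start, and some genes had several starts, giving 33 promoters. The members with no matched entry include Foxb1, Foxc2, Foxe1, Foxf1, Foxh1, Foxj1, Foxk1, Foxl1, Foxm1, Foxn2, Foxo4, Foxo6, Foxp2, Foxq1 and Foxs1. Median GC content was 62.7% over the 33 forkhead promoters and 52.7% over all 32851 in the table. Taking the promoter with the most CpG for each gene, the median was 24 CpG over 28 forkhead genes and 8 over 27025 genes. The 9 forkhead genes with at least 10 CPM had a median of 35 CpG and a range of 6 to 59, and the 18 below 1 CPM a median of 15.5 and a range of 3 to 31. To show the contrast, the 120 bases from 180 to 61 before the start are printed for the member with the most CpG, Foxk2, for Foxj3, and for Foxi2, whose promoter holds 5, with each CpG in capitals.
Foxk2, chr11:121259807-121259926, plus strand: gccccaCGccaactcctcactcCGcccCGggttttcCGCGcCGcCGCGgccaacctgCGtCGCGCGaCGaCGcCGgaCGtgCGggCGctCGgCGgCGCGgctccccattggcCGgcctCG
Foxj3, chr4:119539481-119539600, plus strand: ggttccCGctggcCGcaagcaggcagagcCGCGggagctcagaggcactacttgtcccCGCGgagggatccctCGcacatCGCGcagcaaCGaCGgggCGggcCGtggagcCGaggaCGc
Foxi2, chr7:135410187-135410306, plus strand: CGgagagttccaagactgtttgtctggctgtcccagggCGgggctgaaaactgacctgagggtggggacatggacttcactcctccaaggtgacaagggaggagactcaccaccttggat
The printed stretch holds 24 CpG in Foxk2, 15 in Foxj3 and 2 in Foxi2. In GENCODE, on the same build, 49 bases of the Foxj3 stretch lie in an exon of Frg2f1 on the minus strand, and those of Foxk2 and Foxi2 overlap no exon. Levels did not follow CpG closely, as Foxn3 was at 12.4 CPM with 6 CpG and Foxi3 near 0 with 31.

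The promoters were also searched for the core of the forkhead binding motif, GTAAACA, on both strands. It was found in 1 of the 33 forkhead promoters (3.03%) and in 3.65% of all promoters. The match lies in the promoter of Foxa1, itself a forkhead gene (chr12:57546062-57546361, minus strand), and begins 141 bases before the start. The TATAAA element, searched on the coding strand only, from 40 to 11 bases before the start, was found in Foxa3 and in 1 promoter of Foxp3, against 2.08% of all promoters. These stretches of 60 bases are shown because both belong to the low and variable Foxa group, with the match in capitals.
Foxa1, 60 bases around the forkhead core motif: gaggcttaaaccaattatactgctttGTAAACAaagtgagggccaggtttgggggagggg
Foxa3, 60 bases before the start with TATAAA: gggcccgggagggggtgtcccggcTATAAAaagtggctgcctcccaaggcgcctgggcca
A match in the letters is a description of these windows and says nothing about binding.

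The spread of the members over the 8 libraries is given beside that of all genes as a description. The median CV was 38.2% over the 28 tested members and 16.4% over all 16377 genes tested. It was 16.1% for the 16 members from 10 CPM and 11.7% for the 7887 genes with a mean from 10 CPM up to that of Foxp1, the highest member. For the 12 tested members below 10 CPM it was 96.4%, and 25.2% for the 6728 genes below 10 CPM whose mean was at least that of the lowest of those 12. Of the 12 low members, 8 were highest in Female replicate 1, beside 10.9% of the genes in that range. Of the 16 abundant ones, 6 were highest and 8 lowest in Male replicate 2, beside 30.2% and 44.0% of genes. Female replicate 4 was highest for 5 and lowest for 4 of them. Without Female replicate 1 and Male replicate 2 together, a setting chosen after seeing the data, the median CV of the tested members was 19.9%.

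Of the 16 abundant members, 9 formed a pair of sets that moved against each other. Foxp1, Foxp4, Foxp2, Foxn3 and Foxo1 were high in Male replicate 2 and at or near their lowest in Female replicate 4, and Foxk2, Foxk1, Foxm1 and Foxj3 were the reverse. Among the 378 pairs of tested members, 18 had a Pearson r of log2 CPM of at least 0.9 and 18 of at most -0.9, 4.76% each, beside 2.86% and 2.76% of pairs of all tested genes. The median r was 0.01, so neither direction prevailed. Foxp1 had r of -0.97 with Foxk2 and -0.97 with Foxm1, and Foxm1 had 0.99 with Foxk1. These values share the same 8 libraries and are given as a description.

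**Figure D2:**
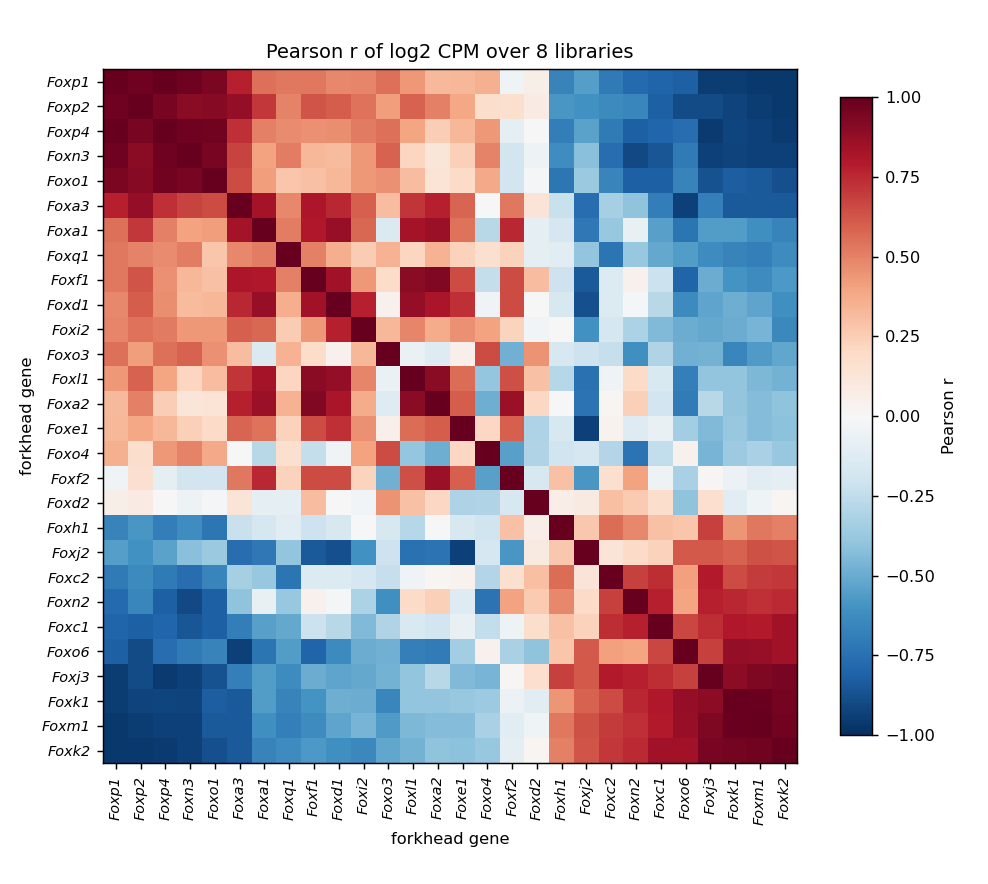
Pearson r of log2 CPM over the 8 libraries for each pair of the 28 tested forkhead genes, coloured from -1 (blue) to 1 (red), with the genes ordered by their correlation with the leading axis of the other genes. The 5 genes from Foxp1 to Foxo1 form a red block at the upper left, the 4 from Foxj3 to Foxk2 one at the lower right, and the corners between them are blue.

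The same axis ran through the rest of the table. The first principal component of the tested genes outside the family held 54.8% of their variance, with Male replicate 2 at 71.5 and Female replicate 4 at -45.02 at its ends. Of 28 members, 9 had an absolute r of at least 0.9 with it, 5 positive and 4 negative, beside 24.3% of the other tested genes. Foxp1 and Foxp2 had r of 0.98 and 0.98, and Foxk2 and Foxm1 had -0.99 and -0.98. The other 7 abundant members, Foxo4, Foxo3, Foxc2, Foxc1, Foxj2, Foxn2 and Foxh1, had r of -0.86 to 0.51 and belong to neither set. With the component recomputed without Male replicate 2, Foxp1 had 0.96, Foxk2 -0.99 and Foxo1 0.68. Over all 8 libraries, the component's scores had r of -0.93 with the TMM factors and 0.05 with log2 library totals. The part of either in these patterns was not tested.

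**Figure D3:**
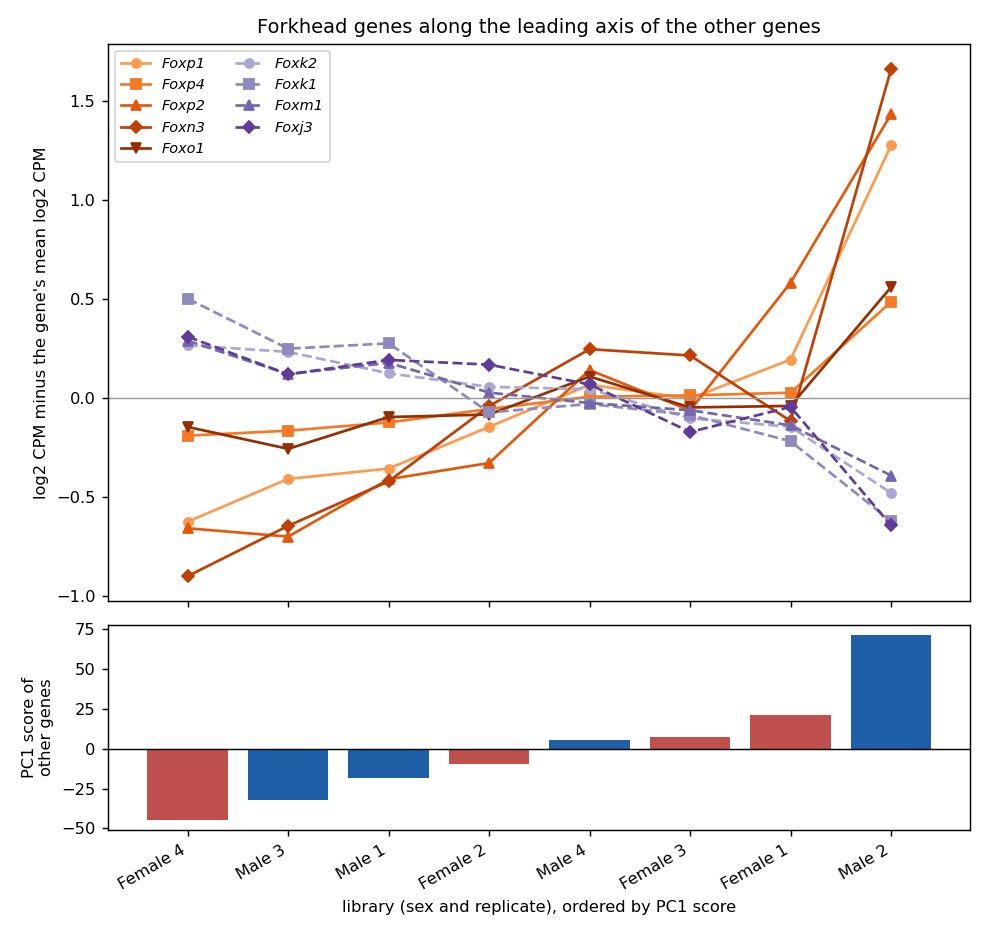
Upper panel, log2 CPM of 9 forkhead genes minus each gene's mean, with libraries in order of the first principal component of the other tested genes; solid orange lines are the 5 genes with r of at least 0.9 with that component and dashed purple lines the 4 with at most -0.9. Lower panel, the component's score in each library (red, Female; blue, Male); Male replicate 2 at 71.5 lies farthest from the rest, and the 2 sets cross between the ends.

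Relations between paralogues, between neighbours on a chromosome and between members and gene lists were tested by exact permutation over all orders of the 8 libraries, two-sided, with Benjamini-Hochberg adjustment over 32 relations (35 were listed, and 3 held a member that did not pass the filter). Of these, 12 had an adjusted p below 0.05 by Pearson's r and 3 by Spearman's rho. The share of arbitrary gene pairs that would pass the same test is not given here. Over all pairs of tested genes the median absolute r was 0.478. Foxp1, Foxp4, Foxp2, Foxk1 and Foxk2 all had an absolute r of at least 0.9 with the first component of the other genes. With the same component, Foxn3 had r of 0.95 and Foxn2 of -0.75. Foxp1 and Foxp4 had r of 0.99 (exact permutation p = 4.96e-05, adjusted 0.000794) and rho of 0.98 (exact permutation p = 0.000397, adjusted 0.00635). Foxp1 and Foxp2 had r of 0.97 (adjusted exact permutation p = 0.000794) and rho of 0.98 (adjusted 0.00635). Foxk1 and Foxk2 had r of 0.96 (adjusted exact permutation p = 0.00159) and rho of 0.95 (adjusted 0.0122). Foxn2 and Foxn3 had a negative r of -0.90 (adjusted exact permutation p = 0.0124) and rho of -0.83 (adjusted 0.0703). Without the 2 libraries farthest from the median of the first gene, r for these 4 pairs was 0.97, 0.95, 0.88 and -0.97, and centred within sex it was 0.99, 0.97, 0.96 and -0.90. The labels give no batch within which these relations could be recomputed.

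Among the low members, the passing relations had a lower r without the 2 libraries farthest from the median of the first gene. Leaving out a gene's extremes narrows its range, so a lower r alone cannot decide what a relation rests on. Foxf1 and its neighbour Foxl1 had r of 0.90 (adjusted exact permutation p = 0.0277) and rho of 0.48 (adjusted 0.409), and r was 0.04 without Female replicate 1 and Male replicate 2. Foxa1 with Foxa2 had r of 0.87 (adjusted exact permutation p = 0.0178) and rho of 0.86 (adjusted 0.0686), and Foxa2 with Foxa3 r of 0.78 (adjusted 0.0198) and rho of 0.86 (adjusted 0.0686). Without the 2 farthest libraries those r were 0.56 and 0.57.

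Against the marker lists, scored as the mean z-score of the list's tested genes, Foxa3 had r of 0.90 with the hepatic list (adjusted exact permutation p = 0.0123; rho 0.83, adjusted 0.0703). With the foregut and pharyngeal epithelial list, r was 0.89 for Foxa3, 0.82 for Foxa1 and 0.71 for Foxa2 (adjusted exact permutation p = 0.0155, 0.0277 and 0.0406; rho 0.76, 0.67 and 0.69, adjusted 0.131, 0.177 and 0.159). Foxf1 had r of 0.88 with the splanchnic and second heart field list (adjusted exact permutation p = 0.0202; rho 0.71, adjusted 0.142). Without Female replicate 1 and Male replicate 2, r was 0.59 for Foxa3 with the hepatic list, 0.64, 0.46 and 0.15 for Foxa3, Foxa1 and Foxa2 with the foregut list, and 0.29 for Foxf1.

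Female replicate 1 and Male replicate 2 carried the highest scores of all 3 lists. The foregut list scored 1.099 in Female replicate 1, 0.77 in Male replicate 2, 0.56 in Female replicate 3 and -0.84 to -0.05 in the other 5. The hepatic list scored 1.45 and 0.61 in Female replicate 1 and Male replicate 2 and 0.25 in Male replicate 4, and the splanchnic list 1.104 and 0.88. Among single markers, Shh, the hedgehog ligand of the foregut, was at 5.02, 0.363, 1.22 and 0.475 CPM in the females and 0, 2.68, 0.354 and 0.200 CPM in the males, in replicate order. Afp, the fetal liver protein, was at 32.3, 0.121, 0.355 and 0.0732 CPM in the females and 0.136, 15.3, 1.37 and 10.9 CPM in the males, in replicate order, so Male replicate 4 was raised as well. How far cells of these tissues contribute to the levels of Foxa1, Foxa2, Foxa3 and Foxf1 was not tested.

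**Figure D4:**
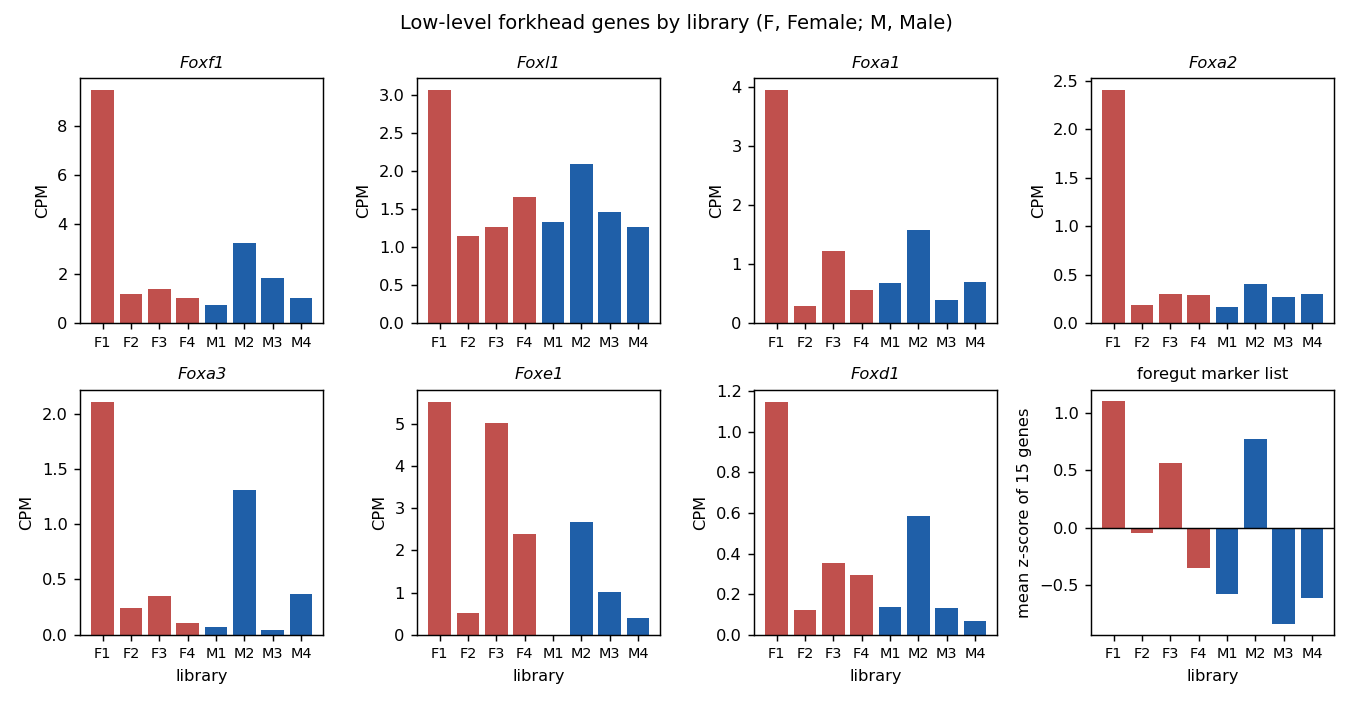
CPM of 7 low forkhead genes in each library (F1 to F4, Female replicates; M1 to M4, Male replicates; bars start at 0 and each panel has its own scale), with the mean z-score of the 15 foregut and pharyngeal epithelial markers in the last panel. Female replicate 1 is the highest bar in every panel, and Male replicate 2 is second in all panels except that of Foxe1.

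Other relations did not pass. Foxc1 and Foxc2 had r of 0.74 (adjusted exact permutation p = 0.0836) and rho of 0.71 (adjusted 0.142). Foxm1 and the 20 mitosis genes linked to it had r of 0.64 (adjusted exact permutation p = 0.165), which was -0.32 without Male replicates 2 and 4. Foxp1 and the cardiomyocyte list had r of 0.82 (adjusted exact permutation p = 0.0532), which was 0.00125 without Male replicate 2 and Female replicate 4. It was 0.50 without Male replicate 2 alone, 0.96 without Female replicate 1 alone and 0.96 without both Female replicate 1 and Male replicate 2. On chromosome 13, Foxq1, Foxf2 and Foxc1 lie in a row with 64.8 kb and 175 kb between them, and their r were 0.23 for Foxf2 with Foxq1 and -0.05 for Foxc1 with Foxf2 (adjusted exact permutation p = 0.660 and 0.960). Foxe1 with the foregut list had r of 0.69 (adjusted exact permutation p = 0.110), and Foxf1 with the hedgehog pathway list 0.05 (adjusted 0.960). The latter was -0.65 without Female replicate 1 and -0.91 without Female replicates 1 and 4.

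Sex was tested last, with edgeR's quasi-likelihood test and Benjamini-Hochberg adjustment over all 16377 genes tested. No forkhead gene passed an adjusted p of 0.05 (0 of 28), where 6 genes of the table did (0.0366%). At an unadjusted edgeR p below 0.05 there was 1 member, Foxh1, beside 367 genes of the table (2.24%). DESeq2, which gave 31 members an adjusted p, had 2, Foxh1 and the low gene Foxl2 that edgeR's filter left out, with 0 passing adjustment. The share of all genes below that p by DESeq2 is not given here, so its 2 members have no share beside them. No tested member had female and male CPM ranges that did not overlap (0 of 28), beside 2.25% of tested genes. The fitted difference was above 0 in 7 members and below 0 in 21, with a median log2 fold change, male over female, of -0.07 beside 0.01 over all tested genes. Genes that covary over the libraries are not independent, so counts of direction, here and for the lists below, are a description only. Marker lists had directions of their own: 14 of 15 foregut genes (median -0.59), 5 of 6 tested hepatic genes (-0.74) and 7 of 10 splanchnic genes (-0.20) were below 0, and 9 of 10 cardiomyocyte genes (0.24) were above 0, 3 of these at an unadjusted p below 0.05. None of these marker genes passed adjustment, and their part in the members' direction was not tested.

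Foxh1 averaged 24.2 ± 3.95 CPM in the females and 16.0 ± 5.75 CPM in the males (SD, n = 4 each). Its log2 fold change was -0.60 ± 0.25 (standard error), which did not pass after adjustment by edgeR (adjusted p = 0.9995), and it was -0.40 without Male replicate 2. Foxe1 had -1.67 ± 0.96 and Foxa2 -1.45 ± 0.84, with unadjusted edgeR p-values of 0.116 and 0.117. That of Foxe1 was -2.88 without Male replicate 2 and -1.26 without Male replicate 1. The high values of Foxa2 and of Foxf1 (-0.93 ± 0.79) came from Female replicate 1. Among the abundant members, Foxo4, Foxo3 and Foxk2 had log2 fold changes of -0.03 ± 0.09, -0.01 ± 0.09 and -0.02 ± 0.16, differences within their standard errors.

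**Figure D5:**
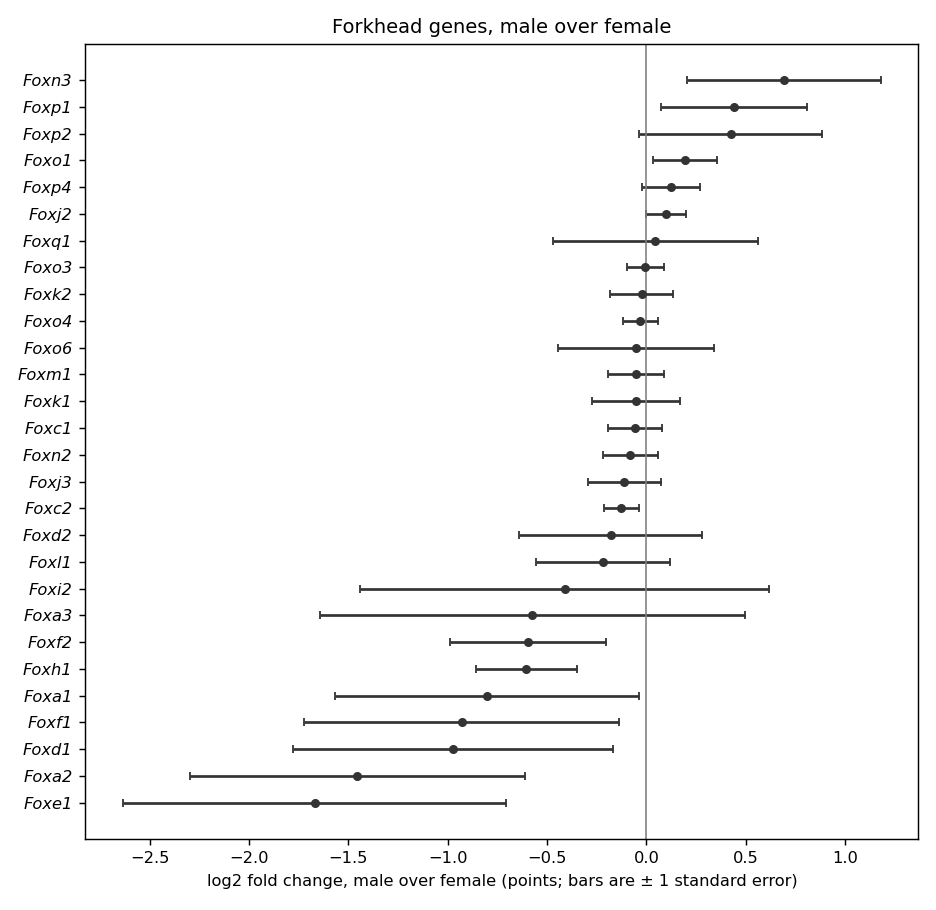
Log2 fold change of each of the 28 tested forkhead genes, male over female, from edgeR, with bars of 1 standard error. The widest bars belong to low genes such as Foxa3 and Foxi2, and no gene passed the adjusted threshold.

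Pathway genes around the members were read from 8 lists, with 133 distinct genes of which 123 were tested. No listed gene passed in either direction (0 of 123), with edgeR or DESeq2. In edgeR, 2 of the 123 had an unadjusted p below 0.05, beside 2.24% of all tested genes. Both are on the endothelial list, the lymphatic marker Lyve1 with a log2 fold change of 0.68 and the Notch target Hey1 with -0.22, and they are named for these values. The 20 mitosis genes linked to Foxm1 had 17 of 20 tested genes with estimates below 0 and a median of -0.11; Top2a, which untangles DNA, was at 315 ± 19.0 CPM in the females and 297 ± 19.1 CPM in the males (SD, n = 4 each), and the proliferation marker Mki67 at 236 ± 17.5 CPM in the females and 272 ± 30.2 CPM in the males. The nodal list around Foxh1 had 11 of 13 tested genes with estimates below 0 and a median of -0.11, with the repressor subunit Drap1 at 134 ± 8.399 CPM in the females and 124 ± 11.4 CPM in the males and the shared Smad4 at 78.0 ± 5.80 CPM in the females and 75.7 ± 2.30 CPM in the males. The median of all tested genes was 0.01.

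Genes linked to Foxo had 16 of 20 tested genes with estimates below 0 and a median of -0.08. Their highest member, the cyclin Ccnd2, was at 900.4 ± 96.5 CPM in the females and 1139 ± 509 CPM in the males, with Male replicate 2 at 1895 CPM, and the ubiquitin ligase subunit Fbxo32 was at 133 ± 4.28 CPM in the females and 138 ± 10.1 CPM in the males. The insulin, Pi3k and Akt list that controls Foxo had 10 of 18 tested genes with estimates below 0 and a median of -0.01; the 14-3-3 protein Ywhaz was at 643 ± 42.2 CPM in the females and 603 ± 30.8 CPM in the males and the kinase Akt1 at 242 ± 37.9 CPM in the females and 247 ± 44.98 CPM in the males. Corepressors and partners of Foxp had 7 of 13 tested genes with estimates below 0 and a median of -0.07, with the remodeller Chd4 at 486 ± 8.19 CPM in the females and 519.8 ± 34.1 CPM in the males and Ctbp1 at 299.6 ± 7.12 CPM in the females and 300.4 ± 16.2 CPM in the males. The 13 genes summed to 1754 to 1794 CPM over the 8 libraries.

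Endothelial genes linked to Foxc had 12 of 18 tested genes with estimates below 0 and a median of -0.04, with the Vegf receptor Kdr at 86.2 ± 7.73 CPM in the females and 82.6 ± 9.41 CPM in the males and VE-cadherin (Cdh5) at 79.0 ± 16.1 CPM in the females and 76.8 ± 21.1 CPM in the males. The hedgehog list upstream of Foxf had 11 of 13 tested genes with estimates below 0 and a median of -0.12, with its inhibitor Sufu at 36.5 ± 4.65 CPM in the females and 33.5 ± 7.07 CPM in the males and its transducer Smo at 36.2 ± 10.004 CPM in the females and 33.4 ± 9.80 CPM in the males. Motile cilium genes linked to Foxj1 had 4 of 10 tested genes with estimates below 0 and a median of 0.02, and 2 of the 18 listed genes were not found under those symbols. The ciliary regulator Rfx3 was at 15.5 ± 2.36 CPM in the females and 15.8 ± 2.45 CPM in the males and Ccdc40 at 5.57 ± 0.371 CPM in the females and 4.93 ± 0.346 CPM in the males.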

How the data were processed

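RNA was sequenced from 8 mouse heart libraries (4 Female, 4 Male). Counts per gene were deposited by the authors as whole numbers, not normalized, in 1 table per library and 1 of the series, which held identical values for all 8 libraries. The submitters' processing notes name STAR 2.5.2b, Trimmomatic 0.36, Subread 1.5.2 with featureCounts, and the build GRCm38, without roles. The strand setting and the handling of multiply mapped reads are not given there or in the labels. A deposited table of normalized values was not used. Symbols were matched by Ensembl identifier for 48970 of 49315 genes. The positions printed are those of the count tables; 34 of the 44 members have the same span in GENCODE M21. Replicates differed by more than sampling noise (chi-square per gene of 7.65 to 195).

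Genes were filtered with edgeR 4.0.16 (filterByExpr, minimum count 10) in R 4.3.3, scaled by TMM and tested for sex with the robust quasi-likelihood fit, without covariates; DESeq2 1.42.0, other scalings, other filters, a replicate block and left-out libraries were alternatives. The tests were checked on simulated counts. Correlations used log2 CPM with a prior count of 2. CPM per kilobase divides by the counted exon length. Limits from 0 counts take 3 counts.

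Members and gene lists were chosen with earlier results of these data known. The values of 1 member are not reported here. Named genes were all members of at least 1 CPM, with library values for the 10 highest, the 5 largest CVs among those with at least 50 counts on average, the 3 smallest p for sex and both members of each passing relation; of pathway lists, called genes and the 2 highest.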

Additional observations from a re-analysis of the deposited data

Results flagged for a closer look

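In the 4 libraries of each sex, the gap between an extreme library and its nearest neighbour was compared with the range for the 28 tested members, 56 groups in all. In 5 groups it passed Dixon's 95% critical value, where chance flags about 1 in 20 groups of independent, normally distributed values. Whether that rate holds for CPM of members that covary was not tested. Foxf1 was at 9.45 CPM in Female replicate 1, with the other females at 1.01 to 1.37 CPM. Foxa2 was at 2.40 CPM and Foxa3 at 2.11 CPM in the same library, with the other females at or below 0.304 and 0.355 CPM. Foxd1 was at 0.583 CPM in Male replicate 2, with the other males at or below 0.136 CPM. Foxk1 was at 31.7 CPM in Female replicate 4, above the 21.3 CPM of the next female. Of the 5 flags, 3 belong to Female replicate 1, the library with the highest foregut and hepatic marker scores.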

How the results depend on the processing

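No forkhead gene passed for sex under any alternative run (DESeq2, other size factors, other filters, the replicate block, each library left out), and no pathway gene with DESeq2, the replicate block or each library left out, the alternatives run for those lists. The count of relations with an adjusted p below 0.05 was 12, and 16 by library size alone, 12 with a prior count of 0.5 and 13 centred within sex. It was 3 (without Male replicate 2) to 12 with each library left out, with 6 without Female replicate 1. It was 0 without the 2 libraries farthest from the median, where 6 libraries remained. The smallest raw exact permutation p was then 0.00278, for Foxp1 and Foxp4 with r of 0.97. The few orders of 6 libraries make a small p harder to reach, but they did not fix the count at 0. That 0 does not by itself show dependence on the libraries left out, and how far it depends on them was not tested. Without Female replicate 1 and Male replicate 2 together, a setting added after seeing the data, the count was 2, and the median CV was 19.9% in place of 38.2%. With each library left out in turn the median CV was 25.1% to 40.4%. The cause was not tested.

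Same-numbered females and males did not deviate together (r of -0.42 to -0.01, and 0 of 4 females correlated best with their own number). These r cannot settle whether the numbers pair the samples, since libraries of unlike number had r of -0.74 to 0.68. With the replicate block 0 members passed, as without it. The log2 fold changes with the block were -0.66 for Foxh1, -2.08 for Foxe1 and -0.69 for Foxa2, which had -1.45 without it. Foxa2 has no value where fewer libraries or a 1 CPM filter removed it, and DESeq2 gave it a log2 fold change of -1.47 but no p-value. Members under 1 CPM rest on few counts per library, so differences among them are limited by depth.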

Other observations

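Next to Foxf1 lies Fendrr (chr8:121054882-121083110, minus strand), a long non-coding RNA of lateral mesoderm transcribed away from it, named here after its values were seen. It was at 3.07, 0.121, 0.203 and 0.238 CPM in the females and 0.170, 1.46, 0.133 and 0.133 CPM in the males, in replicate order. Female replicate 1 and Male replicate 2 were its highest libraries, as for Foxf1.

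Foxl2, which maintains the ovary in later life and did not pass the filter on low counts, was singled out after its values were seen, because its female and male ranges did not overlap. The share of such genes among those below the filter is not given here, and the 2.25% above covers tested genes only. It was at 0.187, 0.302, 0.304 and 0.402 CPM in the females and 0.0680, 0.146, 0.0884 and 0.0334 CPM in the males, in replicate order (mean and SD over 8, 0.191 ± 0.132 CPM), from 60 counts in all. Without the filter its log2 fold change, male over female, was -1.81 ± 0.54 with an edgeR adjusted p of 0.899, and by DESeq2 -1.83 ± 0.69 with an adjusted p of 1.000. Neither passed. Foxl2os, on the opposite strand beside it, was at 0.353 ± 0.0875 CPM (SD, n = 8).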
